A study of Mus musculus with 19 samples.

Results

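The 10 genes Btg1, Btg2, Ier2, Ier3, Ier5, Klf2, Klf4, Klf6, Klf10 and Sik1 were followed in striatal RNA from 19 male mice aged 4 months. They were picked by name from 22873 gene names in the deposited comparison tables, and all 10 passed the filter on low counts, among 21513 of 49592 gene IDs that did so. Every mouse carried the alleles D2RCre_floxCas9-EGFP, in which Cre made in dopamine D2 receptor cells switches on the nuclease Cas9 with EGFP. PFC_D2R-KO mice had AAV5 D2R-sgRNA injected into the medial prefrontal cortex, so that Cas9 could cut the D2 receptor gene there, and control mice had AAV5 syn-mCherry. After 5 days of intraperitoneal saline, a challenge on day 9 was either amphetamine at 3 mg/kg or saline, and the labels give 90 min from the amphetamine challenge to tissue collection. The groups were amphetamine PFC_D2R-KO (n = 4), amphetamine control (n = 5), saline PFC_D2R-KO (n = 5) and saline control (n = 5), each library being 1 mouse by its title. The tissue sequenced was the striatum, while the virus was placed in the cortex, so no value here measures the knockout itself.

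Early response genes are transcribed within minutes of a stimulus from factors already present in the cell, mainly SRF with its partners downstream of MAP kinases and CREB downstream of cAMP, and their mRNAs decay quickly. In the striatum, drugs that release dopamine are known to induce such genes in projection neurons through D1 receptors. Btg1 and Btg2 belong to the antiproliferative BTG/Tob family and bring the CCR4-NOT deadenylase to mRNAs. Ier2 and Ier5 are related nuclear proteins, and Ier5 is known to promote activity of the heat shock factor HSF1, whereas Ier3 is an unrelated stress-induced regulator of apoptosis. Klf2, Klf4, Klf6 and Klf10 are zinc finger transcription factors that bind GC-rich or CACCC motifs; Klf2 and Klf4 are best known from blood vessel endothelium, Klf6 from axon growth and Klf10 as a target of TGF-beta. Sik1 is a kinase that is itself induced by cAMP and keeps the CREB coactivators of the CRTC family out of the nucleus.

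All 10 genes are short and protein coding. Their annotated spans on GRCm39, as the deposited tables give them, ran from 1240 bases for Ier3 to 11555 bases for Sik1, and all 10 were below the median of 23969 bases over 16365 protein-coding genes. Btg2 (ENSMUSG00000020423.7) lies on chromosome 1 from 134002908 to 134006858, and Ier5 (ENSMUSG00000056708.6) lies on the same chromosome from 154972107 to 154975382. Btg1 (ENSMUSG00000036478.9) is on chromosome 10 from 96452868 to 96458671. Klf6 (ENSMUSG00000000078.8) is on chromosome 13 from 5911481 to 5920393. No other annotated gene in the deposited tables overlapped any of the 10.

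The promoters show how these genes differ in the motifs of their usual activators. The RefSeq table (GRCm38.p6) held 7 of the 10 genes: Btg1, Btg2, Ier3, Ier5, Klf2, Klf4 and Klf6. The 250 bases before the start of the 3 genes on which most results turn are printed on the strand of the gene, with capitals marking TGACG, its palindrome TGACGTCA (the cAMP response element), TATAAA and CCAAT on either strand. TGACGTCA contains TGACG on both strands, so each palindrome counts as 2 matches of the shorter motif. GGGCGG, the Sp and KLF core, was also searched on both strands and is not capitalised. The windows are chr1:134079156-134079405 (minus strand) for Btg2, chr1:155099637-155099886 (minus strand) for Ier5 and chr10:96616751-96617000 (plus strand) for Btg1.
Btg2: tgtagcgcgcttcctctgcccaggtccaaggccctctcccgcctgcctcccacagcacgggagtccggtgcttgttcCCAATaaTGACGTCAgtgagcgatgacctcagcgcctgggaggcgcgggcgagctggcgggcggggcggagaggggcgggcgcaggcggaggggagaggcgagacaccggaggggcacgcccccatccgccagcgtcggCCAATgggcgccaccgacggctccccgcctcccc
Ier5: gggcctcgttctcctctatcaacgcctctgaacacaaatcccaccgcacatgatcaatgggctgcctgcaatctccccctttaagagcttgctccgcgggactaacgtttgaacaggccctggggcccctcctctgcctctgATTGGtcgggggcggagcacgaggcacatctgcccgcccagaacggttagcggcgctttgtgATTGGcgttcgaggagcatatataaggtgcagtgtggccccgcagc
Btg1: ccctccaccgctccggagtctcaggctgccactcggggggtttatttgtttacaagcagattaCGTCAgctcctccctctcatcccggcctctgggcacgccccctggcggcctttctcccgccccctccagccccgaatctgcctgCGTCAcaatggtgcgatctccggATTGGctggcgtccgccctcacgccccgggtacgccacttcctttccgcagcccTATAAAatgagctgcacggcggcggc
The palindrome TGACGTCA was found in 1 of the 7 promoters, that of Btg2, and in 1.55% of 32851 promoters of the same length. Ier5 had neither it nor TGACG, and its window held CCAAT on the opposite strand 2 times. TGACG was found in 4 of 7 (Btg1, Btg2, Klf2 and Klf4; 17.8% of all promoters), CCAAT in 5 of 7 (33.8%) and GGGCGG in 7 of 7 (32.7%). TATAAA was found in Btg1 alone among the 7 (12.4%), and the CArG box, the SRF motif, in 0 of 7 (1.47%). A match describes these letters in this window and not a bound site.

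The libraries held 57003408 to 85536346 counts, and the lowest count of any of the 10 genes in any library was 290. The 10 striatal projection neuron markers were present in every library, with Ppp1r1b, which encodes DARPP-32, at 288 to 1240 CPM (counts scaled to a common library total, with TMM normalization). The score of that list, the mean log2 CPM of its genes, was 7.64 ± 0.738 in amphetamine PFC_D2R-KO mice (SD, n = 4), 8.54 ± 0.153 in amphetamine control, 8.05 ± 0.343 in saline PFC_D2R-KO and 8.06 ± 0.275 in saline control mice (SD, n = 5 each). Amphetamine PFC_D2R-KO library 3 had the lowest score, 6.67. Library 2 of that group was at 7.46, next to saline PFC_D2R-KO library 4 at 7.47. Amphetamine PFC_D2R-KO library 2 also had the highest choroid plexus score, 4.16, against at most 1.68 in the other libraries. Earlier work on these data named amphetamine PFC_D2R-KO libraries 2 and 3, saline PFC_D2R-KO library 3, saline control library 5 and amphetamine control library 3 as standing apart. Values without them are given where they matter. No marker list had a gene at 0 in every library. In bulk tissue, fewer cells of a type and less RNA per cell cannot be told apart.

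Per gene length, in the authors' FPKM (fragments divided by gene length and sequencing depth), Ier5 and Btg2 were the highest of the 10 genes and Klf4 the lowest in saline control mice. The order there was Ier5 (12.4 ± 2.19), Btg2 (11.8 ± 1.92), Btg1 (10.4 ± 0.834), Klf6 (9.88 ± 1.65), Sik1 (7.68 ± 0.282), Ier3 (6.88 ± 1.48), Klf10 (5.47 ± 1.73), Klf2 (5.26 ± 1.30), Ier2 (4.11 ± 1.01) and Klf4 (2.57 ± 0.610 FPKM, SD, n = 5). The ranges of each neighbouring pair in that order overlapped. In FPKM, Ier5 averaged 10.2 ± 2.64 in amphetamine PFC_D2R-KO (n = 4), 16.6 ± 1.43 in amphetamine control, 11.8 ± 2.50 in saline PFC_D2R-KO and 12.4 ± 2.19 in saline control mice (SD, n = 5 each). Btg2 averaged 15.2 ± 2.97 in amphetamine PFC_D2R-KO (n = 4), 17.0 ± 2.36 in amphetamine control, 12.4 ± 1.31 in saline PFC_D2R-KO and 11.8 ± 1.92 FPKM in saline control mice (n = 5 each). Ier5 had its lowest group mean and Btg2 a mean above both saline groups in the same amphetamine PFC_D2R-KO mice.

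**Figure D1:**
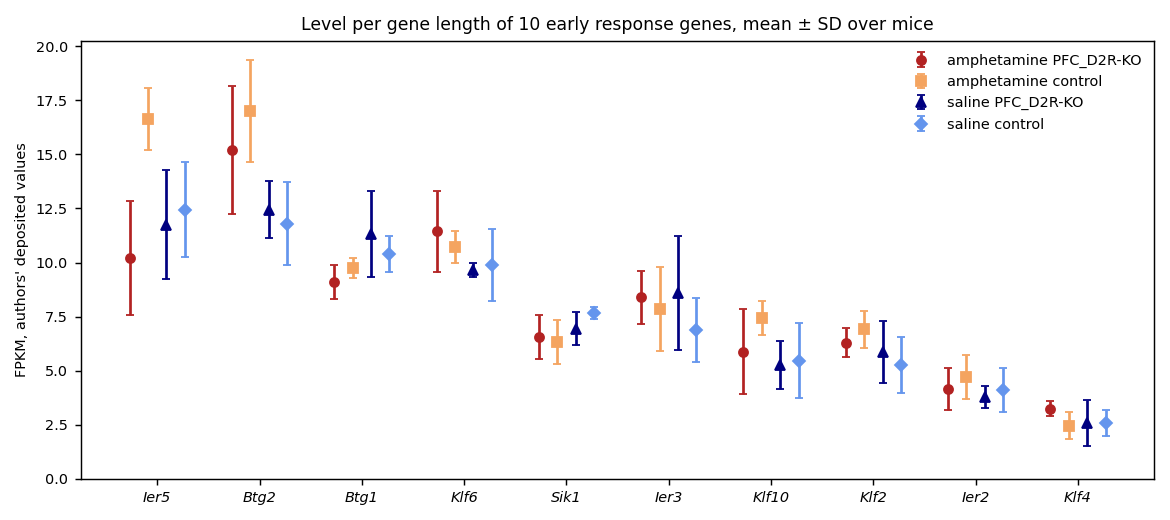
Level per gene length (FPKM, the authors' values) of the 10 genes, ordered by their mean in saline control mice; points are group means and bars 1 SD over 4 (amphetamine PFC_D2R-KO) or 5 mice (the other groups). The Ier5 mean is 10.2 in amphetamine PFC_D2R-KO and 16.6 in amphetamine control mice, with bars that do not meet.

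The first comparison asks what amphetamine did in control mice. The values are given as a description without a test, because the 10 genes were assembled with this comparison known, Btg2 and Ier5 having led it. Btg2, Klf10, Ier5 and Klf2 had the highest log2 fold changes for amphetamine over saline, and Sik1 the lowest. Of the 10 genes, 7 lay above 0 and 3 below, with a median log2 fold change of 0.19, against -0.01 over all 21513 genes, of which 48.4% lay above 0. The authors' deposited table lists 2 of the 10 at an adjusted p under 0.05, Btg2 and Ier5, among 795 of 18863 genes (4.21%), while edgeR called 0 of the 10, with 1 gene called in all (0.00465%), and DESeq2 listed Btg2 among 1.13% of genes. Nothing is read from these counts, since the comparison took part in the choice of the genes.

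Btg2 stood at 41.2, 47.5, 55.6, 48.8 and 39.7 CPM in amphetamine control libraries 1 to 5, against 35.7, 40.0, 27.0, 29.2 and 30.0 CPM in saline control libraries 1 to 5. The groups overlapped in a single pair, since saline library 2 was just above amphetamine library 5, and the log2 fold change was 0.52 ± 0.127 (SE). Its relative Btg1 lay between 44.7 and 50.8 CPM in amphetamine libraries and between 46.7 and 57.0 CPM in saline libraries, a log2 fold change of -0.10 ± 0.0970.

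Ier5 stood at 60.5, 57.7, 54.5, 49.8 and 49.7 CPM in amphetamine control libraries, against 45.7, 48.2, 43.8, 32.7 and 33.3 CPM in saline control libraries. Every amphetamine library was above every saline library, which held for no other of the 10 genes (1 of 10 higher without overlap, 2.22% of all genes), and the log2 fold change was 0.42 ± 0.159. Ier2 and Ier3 had log2 fold changes of 0.19 ± 0.179 and 0.19 ± 0.196, about the size of their standard errors.

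Among the Klf genes, Klf10 had 19.3, 23.6, 25.2, 21.2 and 23.7 CPM in amphetamine control libraries, against 17.6, 25.2, 12.3, 12.3 and 15.8 CPM in saline control libraries. Saline library 2 was as high as the highest amphetamine library, and the other 4 saline libraries were below all amphetamine libraries (log2 fold change 0.44 ± 0.219). Klf2 ran from 10.8 to 14.6 CPM with amphetamine and from 7.49 to 13.5 CPM with saline (0.39 ± 0.166), Klf6 had 0.12 ± 0.102 and Klf4 -0.06 ± 0.224. Sik1 stood at 25.2, 29.1, 25.2, 36.0 and 26.8 CPM in amphetamine control libraries, against 35.3, 34.3, 32.7, 35.6 and 35.5 CPM in saline control libraries (-0.28 ± 0.107). In Sik1, 4 of the 5 amphetamine libraries were below every saline library and library 4 was above all of them.

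Markers of several cell types differed between the same mice, and their part in these values was not tested. Fits with marker scores as covariates are given below as a description. The striatal projection neuron and ependymal scores did not overlap between these groups, so such fits cannot tell those scores apart from amphetamine. All 10 striatal projection neuron markers were higher with amphetamine (mean log2 difference 0.48, scores without overlap), their summed level being 4053 to 5210 CPM with amphetamine and 2695 to 3880 CPM with saline. All 10 cortical projection neuron markers were also higher, by 0.86 (summed 477 to 1127 CPM with amphetamine, 201 to 737 CPM with saline). All 8 ependymal markers were lower, by -0.78 (summed 12.8 to 29.5 CPM with amphetamine, 32.9 to 45.6 CPM with saline). Of the 7 hypothalamic neuron markers 6 were lower, with a mean of -1.06 (summed 9.53 to 24.7 CPM with amphetamine, 14.2 to 184 CPM with saline). All 8 pallidal and septal markers were lower, by -0.66 (summed 121 to 273 CPM with amphetamine, 253 to 399 CPM with saline). All 5 blood markers were lower, by -0.68, and all 8 microglia markers higher, by 0.28, each with overlapping scores. With the cortical, ependymal and pallidal and septal scores as covariates, the log2 fold change of Btg2 was 0.26 and that of Ier5 0.22. With the striatal projection neuron score alone as covariate, Btg2 was at 0.41 and Ier5 at 0.19. The log2 fold change of Ier2 was -0.20 with the 3 scores, against 0.19 without them.

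**Figure D2:**
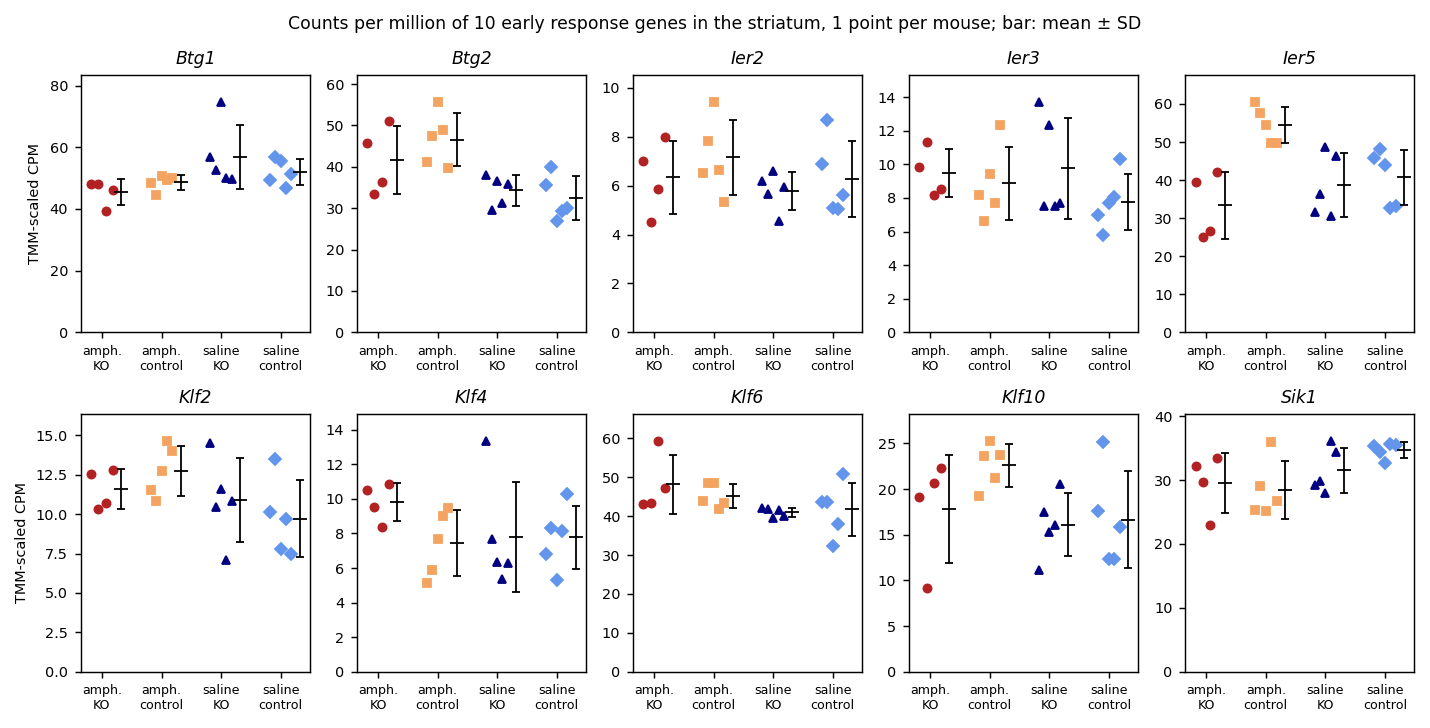
TMM-scaled CPM of each gene, 1 point per mouse, with the group mean and 1 SD beside the points (amph., amphetamine; KO, PFC_D2R-KO). Ier5 is between 25.1 and 42.1 CPM in amphetamine PFC_D2R-KO mice and between 49.7 and 60.5 CPM in amphetamine control mice, and Btg1 and Klf4 each have 1 high saline PFC_D2R-KO mouse.

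The second comparison, amphetamine against saline in PFC_D2R-KO mice, shares no mouse with the first and was tested. None of the 10 genes passed an adjusted p of 0.05 by edgeR's quasi-likelihood test (0 of 10; 1 of all genes, 0.00465%), by limma voom (0 of 10; 0.0139%), by DESeq2 (0 of 10; 0.485%) or in the authors' deposited table (0 of 10; 0.665%). At an unadjusted p under 0.05 there were 3, Btg1, Klf6 and Btg2, against 12.1% of all genes. With the library code numbers as block 1 of these 3 stayed under 0.05 by edgeR (unadjusted p = 0.00381 for Btg1, 0.0701 for Klf6 and 0.136 for Btg2). Of the 10 genes, 6 lay above 0, with a median log2 fold change of 0.11, against -0.01 over all genes, of which 48.9% lay above 0.

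Btg1 and Btg2, the BTG family members, had log2 fold changes of opposite sign in these mice. Btg1 stood at 48.1, 48.1, 39.4 and 46.2 CPM in amphetamine PFC_D2R-KO libraries 1 to 4, against 56.9, 52.7, 74.6, 50.1 and 49.8 CPM in saline PFC_D2R-KO libraries 1 to 5. Every amphetamine library was below every saline library (1 of 10 genes lower without overlap, 2.84% of all genes), with a log2 fold change of -0.32 ± 0.103 and an adjusted p of 0.282 by edgeR. Leaving out 1 library at a time gave -0.36 to -0.20 for Btg1, and without the 5 libraries that stand apart, among them the saline library at 74.6 CPM, it was -0.16. Btg2 stood at 45.7, 33.4, 36.3 and 51.2 CPM with amphetamine, against 38.1, 29.6, 36.6, 31.2 and 35.8 CPM with saline (0.28 ± 0.134, adjusted p = 0.411 by edgeR). Amphetamine libraries 1 and 4 were above all saline libraries in Btg2, and libraries 2 and 3 were within their range. Without libraries 2 and 3 the log2 fold change of Btg2 was 0.51, with an adjusted p of 0.673 by edgeR in that smaller set.

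Klf6 was the only other gene whose groups did not overlap. It stood at 43.0, 43.3, 59.2 and 47.3 CPM in amphetamine PFC_D2R-KO libraries, against 42.0, 41.8, 39.5, 41.6 and 40.1 CPM in saline PFC_D2R-KO libraries (1 of 10 genes higher without overlap, 2.22% of all genes). Its log2 fold change was 0.23 ± 0.107 with an adjusted p of 0.400 by edgeR, and 2 of the amphetamine libraries exceeded the highest saline library by about 1 CPM. Library 3, at 59.2 CPM, also had the highest cortical projection neuron score of the amphetamine PFC_D2R-KO mice, 5.30. Without amphetamine libraries 2 and 3 the log2 fold change of Klf6 was 0.15 ± 0.121 (adjusted p = 0.737 by edgeR). Klf4 had 0.33 ± 0.236, Klf10 0.15 ± 0.232 and Klf2 0.09 ± 0.175. In Klf10, amphetamine library 2 was at 9.11 CPM, below every saline library, and the other 3 amphetamine libraries were at 19.2, 20.7 and 22.3 CPM.

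Ier5 stood at 39.6, 25.1, 26.7 and 42.1 CPM in amphetamine PFC_D2R-KO libraries, against 31.6, 36.4, 48.7, 30.5 and 46.4 CPM in saline PFC_D2R-KO libraries (-0.21 ± 0.169, adjusted p = 0.611 by edgeR). Amphetamine libraries 2 and 3 were below all saline libraries and libraries 1 and 4 within their range, and without libraries 2 and 3 the log2 fold change of Ier5 was 0.09. Ier2, Ier3 and Sik1 had 0.13 ± 0.189, -0.04 ± 0.206 and -0.09 ± 0.114. Of the 10 striatal projection neuron markers, 9 were lower with amphetamine in these mice, by a mean of -0.41 (summed 1336 to 3928 CPM with amphetamine, 2166 to 4601 CPM with saline). Of the 10 cortical projection neuron markers, 9 were higher, by 0.62 (summed 228 to 1335 CPM with amphetamine, 208 to 648 CPM with saline).

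The third comparison asks whether the 10 genes differed between genotypes without the drug. Under saline, PFC_D2R-KO and control mice overlapped in all 10 genes (0 of 10 without overlap, 0.911% of all genes), 5 lay above 0 and 5 below, and the median log2 fold change was -0.01. edgeR called 0 of the 10 (0 of all genes, 0%), with adjusted p from 0.637 for Ier3 to 0.995 for Klf4, and 0 had an unadjusted p under 0.05. DESeq2 (0.00931% of genes called) and the authors' deposited table (0.00439%) also called 0 of the 10. Ier3 had the highest log2 fold change, 0.33 ± 0.195. It stood at 13.7, 7.53, 12.4, 7.54 and 7.72 CPM in saline PFC_D2R-KO libraries, against 7.01, 5.79, 7.70, 8.04 and 10.3 CPM in saline control libraries. PFC_D2R-KO libraries 1 and 3 were above all control libraries and the other 3 within their range. Btg2 (0.08 ± 0.127) and Ier5 (-0.07 ± 0.159) differed by less than their standard errors. Standard errors ran up to 0.224, for Klf4 at 0.01.

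The fourth comparison, PFC_D2R-KO against control after amphetamine, uses the amphetamine control mice in which Ier5 and Btg2 were already known to be high, so it is not independent of how the genes were chosen. Ier5 was the one gene of the 10 whose groups did not overlap, lower in PFC_D2R-KO mice (1 of 10, 3.71% of all genes; 0 of 10 were higher without overlap, 3.08% of all genes, which gives 6.79% for both directions). With the values given above, 25.1 to 42.1 CPM in amphetamine PFC_D2R-KO libraries against 49.7 to 60.5 CPM in amphetamine control libraries, its log2 fold change was -0.71 ± 0.171, a level 0.613 times that of control mice. By edgeR's quasi-likelihood test this ranked 43rd of 21513 genes by p and had an adjusted p of 0.220, so it was not called, like every other gene in this comparison (0 of 10 and 0% of all genes called, with 2749 genes at an unadjusted p under 0.05). DESeq2 called it with an adjusted p of 0.0260 (1 of 10 genes, 0.499% of all), and limma voom gave -0.74 with an adjusted p of 0.238.

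The striatal projection neuron markers differed in the same direction as Ier5. All 10 were lower in PFC_D2R-KO mice, by a mean of -0.90 and without overlap of the scores (summed 1336 to 3928 CPM in PFC_D2R-KO, 4053 to 5210 CPM in control mice). Of the 10 cortical projection neuron markers, 8 were also lower and 2 higher, by a mean of -0.25, with overlapping scores (summed 228 to 1335 CPM in PFC_D2R-KO, 477 to 1127 CPM in control mice). Ependymal, pallidal and septal, hypothalamic and choroid plexus markers differed the other way, with overlapping scores. All 8 ependymal markers were higher, by 0.63 (summed 26.4 to 44.8 CPM in PFC_D2R-KO, 12.8 to 29.5 CPM in control mice), and all 8 pallidal and septal markers by 0.49 (254 to 450 CPM in PFC_D2R-KO, 121 to 273 CPM in control mice). Of the hypothalamic markers 6 of 7 were higher, by 1.21 over the list (12.6 to 67.8 CPM in PFC_D2R-KO, 9.53 to 24.7 CPM in control mice), and of the choroid plexus markers 5 of 6, by 0.92 (26.5 to 676 CPM in PFC_D2R-KO, 30.3 to 69.7 CPM in control mice). The choroid plexus score was 4.16 in PFC_D2R-KO library 2 and 0.937 to 1.00 in the rest of that group, against 0.441 to 1.67 in control mice. The part of these markers in the value of Ier5 was not tested, and the fits with scores as covariates that follow are a description. The striatal projection neuron scores did not overlap between these groups, so a fit with that score cannot tell it apart from genotype. The 2 PFC_D2R-KO mice with the lowest scores, libraries 2 and 3, were also the lowest in Ier5. Without these 2 libraries the log2 fold change of Ier5 was -0.41 with an adjusted p of 1.00 by edgeR, and the remaining mice, at 39.6 and 42.1 CPM, were still below all amphetamine control mice. With the striatal projection neuron score as covariate it was -0.27 ± 0.153 (adjusted p = 1 by edgeR), and with the 3 other scores -0.55 ± 0.199 (adjusted p = 0.918). Leaving out 1 library at a time gave -0.83 to -0.59.

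The other 9 genes overlapped between the genotypes after amphetamine, with adjusted p from 0.515 to 0.891 by edgeR. Klf4 stood at 10.5, 9.51, 8.40 and 10.9 CPM in amphetamine PFC_D2R-KO libraries, against 5.11, 5.91, 7.71, 9.02 and 9.50 CPM in amphetamine control libraries (0.40 ± 0.236). In Klf4, 3 of the 4 PFC_D2R-KO libraries were above all control libraries, and library 3 was within their range. Klf10 was at -0.34 ± 0.233, Ier2 at -0.17 ± 0.190, Btg2 at -0.16 ± 0.135, Klf2 at -0.14 ± 0.176 and Btg1 at -0.10 ± 0.103. Ier3 was at 0.09 ± 0.207, Klf6 at 0.09 ± 0.108 and Sik1 at 0.06 ± 0.113. The log2 fold change of Btg2 was 0.06 without PFC_D2R-KO libraries 2 and 3, against -0.16 with them. The median over the 10 genes was -0.12, against 0.00 over all genes, and 4 of the 10 lay above 0, against 51.0% of all genes.

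**Figure D3:**
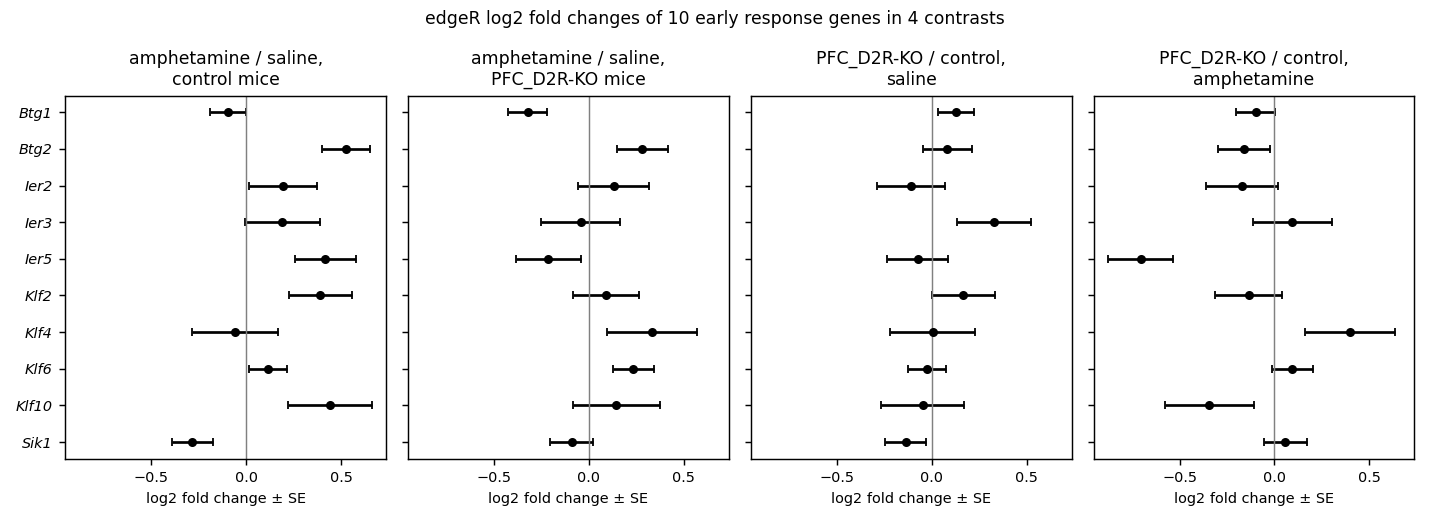
edgeR log2 fold changes of the 10 genes (points) with 1 standard error (bars) in 4 comparisons, each named above its panel as numerator over denominator. Ier5 is at 0.42 for amphetamine over saline in control mice, -0.21 for the same in PFC_D2R-KO mice and -0.71 for PFC_D2R-KO over control after amphetamine.

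The interaction, the amphetamine response of PFC_D2R-KO mice minus that of control mice, contains the control response and is likewise not independent of it. It was lowest for Ier5, at -0.63 ± 0.233, the sum of a response of -0.21 in PFC_D2R-KO mice and the reverse of 0.42 in control mice. edgeR gave Ier5 an adjusted p of 0.519, and 0 of the 10 genes were called (0% of all genes; DESeq2 also 0 of 10, with 0.0722% of genes called). Without PFC_D2R-KO libraries 2 and 3 the difference for Ier5 was -0.33, and with the striatal projection neuron score as covariate it was -0.20. For Btg2 the difference was -0.24 ± 0.185 (adjusted p = 0.664 by edgeR) with all libraries and -0.02 without those 2. Of the 10 genes, 7 had a difference below 0, with a median of -0.23 against 0.01 over all genes. Klf4 (0.39 ± 0.326), Sik1 (0.19 ± 0.156) and Klf6 (0.12 ± 0.148) were above 0.

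Within groups, the 10 genes varied to unequal degrees. The SD of log2 CPM within groups was highest for Klf10 (0.393, with 91.0% of 15225 genes lower), Klf4 (0.384), Ier3 (0.335) and Ier2 (0.302), against a median of 0.179 over those genes with a mean of at least 1 CPM. Ier5 was at 0.280, Btg2 at 0.218 and Btg1 at 0.157. Btg1, Klf6 (0.168) and Sik1 (0.178) were below that median, so the same log2 difference stands out more in them than in Klf10 or Klf4.

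Mouse by mouse, Btg2 and Ier2 varied together. After subtracting group means, 45 pairs among the 10 genes were correlated over the 19 libraries, with p from 100000 permutations within groups. Btg2 with Ier2 had Pearson r = 0.91 (permutation p = 1e-05, the smallest these permutations can give; adjusted p = 0.00045 over the 45 pairs) and Spearman rho = 0.86 (permutation p = 6e-05, adjusted 0.0027). Without the 2 libraries farthest from the median of Btg2, r was 0.889. No other pair passed an adjusted p of 0.05 by Pearson r. Ier2 with Ier5 had r = 0.67 (permutation p = 0.00389, adjusted 0.0711) and rho = 0.73 (permutation p = 0.00099, adjusted 0.0223). The lowest r was that of Ier3 with Klf10, -0.53 (permutation p = 0.0148, adjusted 0.111; rho -0.53, permutation p = 0.0224, adjusted 0.168). Over all 45 pairs, 29 were positive and the median r was 0.19. These deviations share the tissue piece and library of each mouse.

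The genes most like Btg2, by Pearson r of the same group-centred log2 CPM over 19 libraries among 15215 other genes, were Dusp1 (r = 0.84), Abi3bp (0.82), Oaf (0.81), Car7 (0.81) and Dusp5 (0.81). For Ier5, examined after its values were seen, they were Tpbgl (0.93), ENSMUSG00000095742 (0.93), Ier5l (0.92), Epor (0.92) and Tesc (0.92). These coefficients describe the genes that came first in a search of all genes and carry no test.

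The 10 genes were also set against 14 lists of markers (140 relations, group-centred, 19 libraries). Klf10 and Klf6 followed the cortical projection neuron score. For Klf10, r was 0.83 (permutation p = 0.00031, adjusted 0.0401), rho was 0.83 (permutation p = 0.00011, adjusted 0.0154), and r was 0.719 without the 2 libraries farthest from the median score. For Klf6, r was 0.79 (permutation p = 0.00076, adjusted 0.0401), rho was 0.78 (permutation p = 0.00096, adjusted 0.0448), and r was 0.711 without 2. Klf4 followed the glucocorticoid-induced score, with r = 0.71 (permutation p = 0.00086, adjusted 0.0401) and rho = 0.63 (permutation p = 0.00057, adjusted 0.0399). Without the 2 libraries farthest from the median that r was 0.480, so it rests in part on them: saline control library 5 and saline PFC_D2R-KO library 1 had scores of 6.38 and 6.05, against at most 5.07 elsewhere, and held the highest Klf4 of their groups, 10.3 and 13.3 CPM. No other relation passed an adjusted p of 0.05 by Pearson r. Ier5 with the striatal projection neuron score had r = 0.76 (permutation p = 0.00398, adjusted 0.0649) and rho = 0.83 (permutation p = 0.00203, adjusted 0.0711), with r = 0.77 without 2 libraries. Klf2 with the endothelial score had r = 0.67 (permutation p = 0.00298, adjusted 0.0649), rho = 0.55 (permutation p = 0.0249, adjusted 0.268), and r = 0.543 without 2 libraries. Klf2 with the microglia score also had r = 0.67 (permutation p = 0.00566, adjusted 0.0792). There rho was 0.68 (permutation p = 0.00449, adjusted 0.108), and r was 0.691 without 2 libraries. The same adjusted p of 0.0649 for r was reached by 4 more relations. Btg2 and Ier2 ran against the hypothalamic neuron score, with r = -0.69 for Btg2 (permutation p = 0.00386; rho -0.66, permutation p = 0.00781, adjusted 0.137) and r = -0.71 for Ier2 (permutation p = 0.00358; rho -0.65, permutation p = 0.0113, adjusted 0.158). Without the 2 libraries farthest from the median score these were -0.664 and -0.603. Klf10 ran against the pallidal and septal score (r = -0.65, permutation p = 0.00396; rho -0.64, permutation p = 0.00652, adjusted 0.130; r = -0.635 without 2). Ier3 with the glucocorticoid-induced score had r = 0.62 (permutation p = 0.00417; rho 0.44, permutation p = 0.0465, adjusted 0.381), and 0.356 without 2 libraries.

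**Figure D4:**
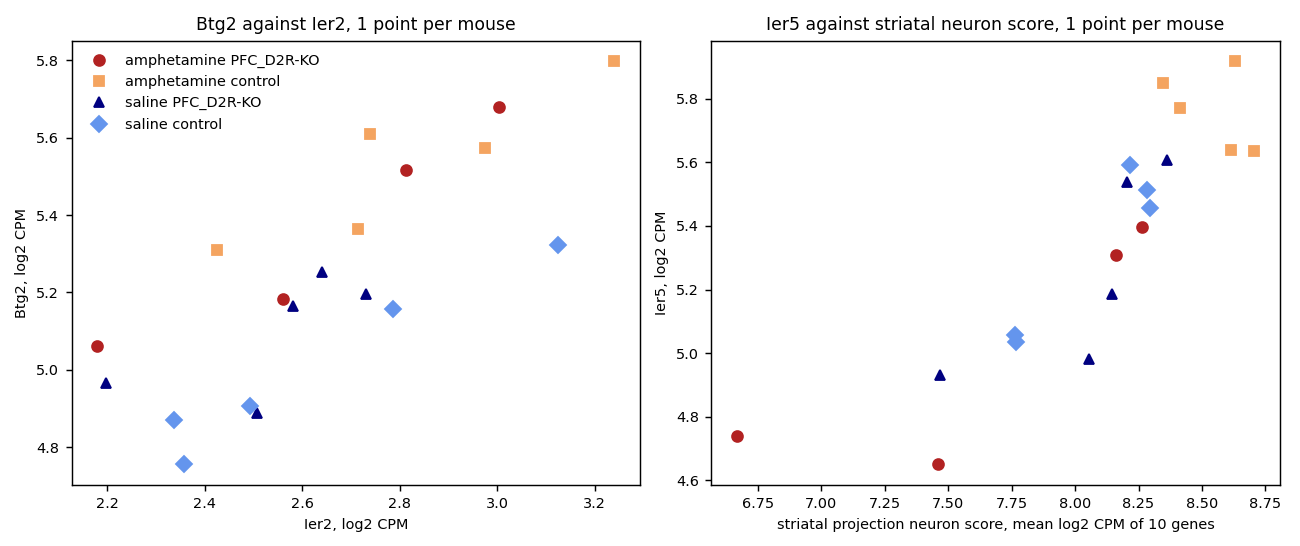
Left, Btg2 against Ier2 (log2 CPM), and right, Ier5 (log2 CPM) against the striatal projection neuron score (mean log2 CPM of 10 markers), 1 point per mouse, before group means were subtracted. After subtracting group means r is 0.91 on the left and 0.76 on the right, and the 2 amphetamine PFC_D2R-KO mice with the lowest Ier5 (25.1 and 26.7 CPM) have scores of 7.46 and 6.67.

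The partners of these genes were read from 5 lists, of which edgeR called 0 genes in any comparison. With amphetamine in PFC_D2R-KO mice, the other tools called 1 gene of the lists, Ccn1 (log2 fold change 0.78, adjusted p = 0.0275 by DESeq2, and 0.78 with an adjusted p of 0.00368 in the authors' deposited table). In control mice the authors' deposited table lists Ier5l (0.46, adjusted p = 0.0151), Junb (0.41, adjusted p = 0.0208), Rps6ka5 (0.38, adjusted p = 0.0283) and Dusp1 (0.33, adjusted p = 0.0358), of which DESeq2 called 0 here. That table called 4.21% of all genes (795 of 18863) in control mice, and DESeq2 1.13%. The genes named here were picked out for these calls after their values were seen, and nothing about the lists is read from them. In the other comparisons DESeq2 called 0 genes of the 5 lists (0.00931% of all genes under saline, 0.499% after amphetamine and 0.0722% for the difference of responses). The authors' deposited table also called 0 between genotypes under saline (0.00439% of all genes). Of 13 BTG relatives and deadenylase partners, 12 were tested (Btg4 did not pass the filter). With amphetamine in control mice 5 of 12 lay above 0, against 48.4% of all genes, with a median of 0.00. Their smallest p belonged to Pabpc1, the cytoplasmic poly(A)-binding protein, in control mice (0.15 ± 0.0711) and again for PFC_D2R-KO over control after amphetamine (-0.17 ± 0.0755, adjusted p = 0.365 by edgeR). In PFC_D2R-KO mice it was Tob1 (-0.12 ± 0.0667, adjusted p = 0.481), under saline Tob2 (-0.16 ± 0.0722, adjusted p = 0.614) and for the difference of responses the deadenylase Cnot7 (-0.18 ± 0.0959, adjusted p = 0.555). Of 13 other KLF factors, 12 were tested (Klf17 was not). With amphetamine 7 of 12 lay above 0 in control mice (48.4% of all genes) and 10 of 12 in PFC_D2R-KO mice (48.9%). Between genotypes under saline 1 of 12 lay above 0 (51.0% of all genes) and 11 below, with a median of -0.13. The saline PFC_D2R-KO mice of that comparison are also the denominator of the 10 of 12. Klf16 was at 0.25 ± 0.106 in control mice and -0.24 ± 0.113 for PFC_D2R-KO over control after amphetamine (adjusted p = 0.391 by edgeR). Klf11 was at 0.27 ± 0.11 in PFC_D2R-KO mice (adjusted p = 0.353), -0.19 ± 0.104 between genotypes under saline (adjusted p = 0.623) and 0.30 ± 0.151 for the difference of responses (adjusted p = 0.550).

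In the route of Sik1, with 12 of 12 genes tested, the CREB coactivator Crtc2 had the smallest p in 4 of 5 comparisons. Crtc2 averaged 19.98 ± 1.34 CPM in amphetamine PFC_D2R-KO (n = 4), 17.6 ± 1.39 in amphetamine control, 17.6 ± 0.967 in saline PFC_D2R-KO and 20.8 ± 2.40 CPM in saline control mice (SD, n = 5 each). Its log2 fold change with amphetamine was -0.24 ± 0.0821 in control mice. Between genotypes Crtc2 was at -0.24 ± 0.0820 under saline (adjusted p = 0.614 by edgeR) and 0.18 ± 0.0868 after amphetamine (adjusted p = 0.385), and the difference of responses was 0.43 ± 0.119 (adjusted p = 0.519). Saline control mice, at 18.5 to 24.7 CPM, enter the control response, the saline genotype comparison and the difference of responses. These values are therefore not separate results. In PFC_D2R-KO mice the smallest p was that of Crem, an inducible CREB relative (-0.21 ± 0.0921, adjusted p = 0.378).

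Of 11 genes of the MAP kinase and SRF route, 11 lay above 0 with amphetamine in control mice (median 0.14) and 6 in PFC_D2R-KO mice (median 0.02), and 2 lay above 0 for PFC_D2R-KO over control after amphetamine (median -0.14). Of all genes, 48.4%, 48.9% and 51.0% lay above 0 in these comparisons. All 10 striatal projection neuron markers were likewise higher in the first and lower in the last, and their part in these counts was not tested. Rps6ka5, the nuclear kinase MSK1, averaged 47.4 ± 4.31 CPM in amphetamine PFC_D2R-KO (n = 4), 58.4 ± 5.86 in amphetamine control, 48.6 ± 7.20 in saline PFC_D2R-KO and 44.9 ± 6.82 CPM in saline control mice (n = 5 each). Its log2 fold change was 0.38 ± 0.11 in control mice, -0.30 ± 0.117 for PFC_D2R-KO over control after amphetamine (adjusted p = 0.287 by edgeR) and -0.41 ± 0.160 for the difference of responses (adjusted p = 0.519). The SRF partners Elk4 (0.23 ± 0.0805 with amphetamine in PFC_D2R-KO mice, adjusted p = 0.297) and Elk3 (0.25 ± 0.0976 between genotypes under saline, adjusted p = 0.614) had the smallest p in the other comparisons.

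Of 27 other early response genes, 20 lay above 0 with amphetamine in control mice (median 0.17) and 17 in PFC_D2R-KO mice (median 0.07), against 48.4% and 48.9% of all genes. In control mice Fos was at 0.03 ± 0.169, Npas4 at -0.003 ± 0.223 and Arc at 0.21 ± 0.278, while Egr2 was at 0.59 ± 0.309 and Nr4a2 at 0.83 ± 0.444. Those genes were named after their values were seen. Between genotypes 5 of 27 lay above 0 under saline (median -0.13) and 5 of 27 after amphetamine (median -0.27), against 51.0% of all genes in each. Dusp1, a MAP kinase phosphatase, averaged 35.3 ± 6.31 CPM in amphetamine PFC_D2R-KO (n = 4), 39.4 ± 3.70 in amphetamine control, 29.2 ± 3.90 in saline PFC_D2R-KO and 31.4 ± 3.88 CPM in saline control mice (n = 5 each), and had a log2 fold change of 0.33 ± 0.113 in control mice. Ccn1, a secreted matrix protein and SRF target, was at 0.77 ± 0.190 with amphetamine in PFC_D2R-KO mice (adjusted p = 0.205 by edgeR). Per1, a clock gene, was at -0.48 ± 0.193 between genotypes under saline (adjusted p = 0.614). It ranged from 50.9 to 68.1 CPM in saline PFC_D2R-KO mice (mean 60.3 ± 6.74, SD, n = 5). In saline control mice it ranged from 62.8 to 146 CPM (mean 84.2 ± 35.0, SD, n = 5). Ier5l, the relative of Ier5, averaged 16.8 ± 3.88 CPM in amphetamine PFC_D2R-KO (n = 4), 24.9 ± 1.68 in amphetamine control, 19.1 ± 4.45 in saline PFC_D2R-KO and 18.1 ± 3.36 CPM in saline control mice (n = 5 each). Its log2 fold change for PFC_D2R-KO over control after amphetamine was -0.57 ± 0.170 (adjusted p = 0.226 by edgeR), and the difference of responses was -0.64 ± 0.232 (adjusted p = 0.519), next to -0.71 and -0.63 for Ier5.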

How the data were processed

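Striatal RNA of 19 mice was sequenced, and the authors deposited whole-number gene counts per mouse, for which the tools listed in the submitters' processing notes include STAR 2.6.0c, HTSeq 0.6.1p2, DESeq2 1.26.0s and Trim Galore 0.5.0, on build GRCm39. The strand setting and annotation release are not stated here, so antisense reads could be shared. Per the file headers, the authors' 3 comparison tables give DESeq2 log2 fold changes, p-values and adjusted p-values, a Wald score, a mean normalized signal and FPKM values per mouse, whose gene length is not stated. The Wald score and signal columns of the deposited tables were not used in the text. A PFC_D2R-KO library 7 that 1 of these tables leaves out was not analysed here. The count files held 0 lines for unassigned reads.

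Groups came from the titles. The p-values measure the spread between mice. Counts were tested with edgeR 4.0.16 in R 4.3.3 (filterByExpr, TMM, robust quasi-likelihood, 4 group means over all 19 libraries, Benjamini-Hochberg over 21513 genes, calls at adjusted p under 0.05). The standard error is the log2 fold change over the root of F. CPM is TMM-scaled, and log2 CPM used a prior count of 2. The fitting steps were tested on simulated data. DESeq2 1.42.0 and limma 3.58.1 voom, other scaling, no filter, the compared groups only, replicate blocks, marker scores as covariates and left-out libraries were alternatives. The striatal projection neuron covariate and the fit without amphetamine PFC_D2R-KO libraries 2 and 3 were chosen after seeing the data. Libraries ranged from 57003408 to 85536346 counts, and chi-square over genes between any 2 libraries of a group was at least 10.3 per degree of freedom, so none was a copy of another.

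The members and gene lists were chosen with earlier results of these data known. Named genes were all 10 members, per list the gene with the smallest edgeR p in each comparison, and the 5 genes most like Btg2. Other genes were named after their values were seen, as said where they appear. For mice with the same title number, r of deviations from group means was -0.401 to 0.232 over 18 pairs. For the same library code number in the descriptions, it was 0.127 to 0.390 over 4 pairs of PFC_D2R-KO mice. Over 5 pairs of control mice it was -0.355 to 0.0975. Mice with unlike numbers were not compared in this way, and the labels do not say what the numbers mark. Whether either numbering pairs the mice was therefore not settled.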

Additional observations from a re-analysis of the deposited data

Results flagged for a closer look

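In 40 sets of 4 or 5 libraries (10 genes in 4 groups), 2 libraries lay far from the others of their group by Dixon's criterion, which chance meets in about 1 in 20 groups. Btg1 in saline PFC_D2R-KO library 3 was at 74.6 CPM, with the next library at 56.9 CPM, a gap of 0.714 of the group's range. Klf4 in saline PFC_D2R-KO library 1 was at 13.3 CPM, with the next library at 7.66 CPM, a gap of 0.713 of the range. That library also had 1 of the 2 high glucocorticoid-induced scores, 6.05, and the part of this in its Klf4 level was not tested.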

How the results depend on the processing

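The members called were 0 by edgeR in each of the 5 comparisons under every alternative run with it, each left-out library included. DESeq2 called 1 member, Ier5, for PFC_D2R-KO over control after amphetamine. It also listed 1, Btg2, with amphetamine in control mice, from which nothing is read, since that comparison was known when the genes were chosen. The median log2 fold change of the members in that last comparison, -0.12, became 0.049 without the 5 libraries that stand apart, 0.011 with the 3 marker scores, 0.088 with the striatal projection neuron score and 0.029 without amphetamine PFC_D2R-KO libraries 2 and 3. The cause was not tested. Leaving out each library in turn gave medians from -0.15 to -0.054 for PFC_D2R-KO over control after amphetamine. The replicate block on library codes left 0 members called in both amphetamine comparisons (Btg2 0.22 and Btg1 -0.33 in PFC_D2R-KO mice, where Btg1 alone kept an unadjusted p under 0.05), took the all-gene count in PFC_D2R-KO mice to 0, against 1 without it, and could not be fitted for the genotype comparisons. With the title number as replicate block 0 members were called as well. Over all genes, fitting the compared groups alone gave 75 calls with amphetamine in control mice and 0 in PFC_D2R-KO mice, and DESeq2 gave 214, 98, 2, 103 and 14 in the 5 comparisons, against 1, 1, 0, 0 and 0 by edgeR.

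Some members changed sign in some settings, most of them near 0. Values larger than their standard error also did so. Among them were Ier5 in PFC_D2R-KO mice (-0.21 ± 0.169) and Btg2 between genotypes after amphetamine (-0.16 ± 0.135). For the difference of responses they were Btg2 (-0.24 ± 0.185) and Klf2 (-0.30 ± 0.242). Ier2 with amphetamine in control mice, at 0.19 ± 0.179, was -0.20 with the 3 scores. With amphetamine in PFC_D2R-KO mice, Ier3 was 0.0048 by limma voom, 0.040 with the title block, 0.0011 without the 5 libraries and 0.096 with the 3 scores. Sik1 was 0.012 without the 5 libraries and 0.069 without libraries 2 and 3, and Ier5 was 0.17 and 0.089 in those settings. Klf10 was -0.19 and Ier2 -0.032 with the 3 scores. Between genotypes under saline, Klf4 was -0.040 by limma voom and -0.0012 in the compared groups alone, Klf6 0.072 without the 5 libraries and Klf10 0.0061 with the 3 scores. After amphetamine, Btg2 was 0.13, 0.011, 0.048 and 0.061, and Ier2 0.19, 0.093, 0.078 and 0.071, without the 5 libraries, with the 3 scores, with the striatal score and without libraries 2 and 3. Sik1 was -0.014 and Klf2 0.011 with the 3 scores, and Klf6 was -0.11, Btg1 0.098 and Klf2 0.17 with the striatal score. For the difference of responses, Klf6 was -0.046, Btg2 0.094 and Ier2 0.38 without the 5 libraries, Ier2 was 0.17 with the 3 scores, Klf6 -0.088, Ier2 0.18 and Klf2 0.0071 with the striatal score, and Ier2 0.19 without libraries 2 and 3.

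Leaving out 1 library at a time, the sign turned within these ranges: Ier2 -0.18 to 0.033, Klf10 -0.15 to 0.15, Klf4 -0.28 to 0.12 and Klf6 -0.11 to 0.051 between genotypes under saline. Ier3 ran from -0.0022 to 0.25 and Klf6 from -0.021 to 0.14 between genotypes after amphetamine, and Ier2 from -0.21 to 0.070 for the difference of responses. With amphetamine in PFC_D2R-KO mice, Ier3 ran from -0.14 to 0.11, Klf2 from -0.030 to 0.22 and Sik1 from -0.15 to 0.012. In control mice Klf4 ran from -0.17 to 0.057 for amphetamine over saline. The number of mice, 4 or 5 a group, and their spread limit these values more than counting does, since the lowest count of a member was 290.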
